A study of Picea abies with 40 samples.

Results

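Along the root of a Norway spruce (Picea abies) seedling, 150 genes were expressed more highly in both middle zones of 4 sampled zones than in either end zone. They were chosen from 70736 listed gene IDs by their CPM (counts per M counts of the library) averaged over the 5 libraries of each zone. A gene had to reach 5 CPM in zone 2 and in zone 3, the means of these zones had to lie within 2-fold of each other, and the lower of them had to be at least 1.5 times the higher of the means of zones 1 and 4. Of 551 genes that met these conditions, the 150 with the highest ratio of the lower middle mean to the higher end mean were kept, with 1 CPM added to both before the ratio was taken. The zone values therefore chose the genes, and the zone levels given here are a description without a test. The captured tissue libraries took no part in the choice.

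The seedlings were unmutated and untreated as far as the labels say, and were grown on plates until about 2 days after germination. The zones are whole root segments that start at the tip, 3 of them 1 mm and 1 of them 2 mm long, with 5 libraries each of zones 1, 2, 3 and 4. Laser capture, in which chosen cells are cut out of a tissue section, gave 4 libraries each of stele 1, stele 2, stele 3, ground tissue and the QC area. The steles came from the elongation and differentiation zones, without a statement of which number belongs to which, and it is not stated whether a zone and a stele of the same number come from the same place. The letters QC are used as in the labels, which do not spell them out. The ground tissue libraries also carry the letters endo, likewise not spelled out. Which part of the ground tissue was captured is therefore not clear from the labels. Neither pooling nor sharing of seedlings between libraries is given, so p-values measure the spread between libraries, which may be technical.

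In a growing root, cells divide near the tip, then elongate, and then take on their final form further back, so segments cut in order from the tip hold cells of successive ages. The stele is the central cylinder with the water and sugar conducting tissues and their precursors. The ground tissue lies around it and includes the cortex, which makes up much of the bulk of a young root. Plant roots are known to express sets of genes transiently as cells pass from division to maturity.

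The files do not pair gene IDs with names, so no function is given for any gene, no marker of a cell type could be checked against the region labels, and no sequence is shown. Zone libraries held 3.53 to 7.25 M counts and a count for 146 to 150 of the 150 genes, and captured libraries held 4.94 to 12.0 M counts and a count for 108 to 144 of them. Zone libraries were all sequenced in lane 3, stele 2 in lane 7 and the QC area in lane 8. Stele 1 had replicates 1 and 2 in lane 7 and replicates 3 and 4 in lane 8, stele 3 had replicate 1 in lane 8 and the others in lane 7, and ground tissue had replicate 2 in lane 7 and the others in lane 8. Zone and captured RNA were extracted with different kits, so levels in the 2 kinds of library are set side by side without a test. In whole segments and captured regions alike, fewer cells of a type and less RNA per cell cannot be told apart. CPM values are not corrected for gene length, so they compare a gene between libraries and not genes with each other.

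Together the 150 genes took up 0.519% ± 0.0698 of the counts in zone 1, 2.12% ± 0.174 in zone 2, 2.48% ± 0.396 in zone 3 and 0.601% ± 0.128 in zone 4 (SD, n = 5 each). Every library of the middle zones lay above every library of the end zones, which follows from the choice of genes, with 1.85% as the lowest middle value and 0.754% as the highest end value. In the captured libraries, which the choice did not use, the share was 0.790% ± 0.348 in stele 1, 2.75% ± 0.645 in stele 2, 3.01% ± 0.254 in stele 3, 0.396% ± 0.0707 in ground tissue and 0.203% ± 0.0335 in the QC area (SD, n = 4 each). The lowest library of steles 2 and 3 held 2.03%, against 1.24% in the highest of the other captured libraries, a stele 1 library. Without the 2 genes of highest CPM, named further on, the shares were 0.753% ± 0.307 in stele 1, 2.30% ± 0.336 in stele 2, 2.49% ± 0.182 in stele 3, 0.381% ± 0.0618 in ground tissue and 0.200% ± 0.0345 in the QC area (SD, n = 4 each), in the same order.

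**Figure D1:**
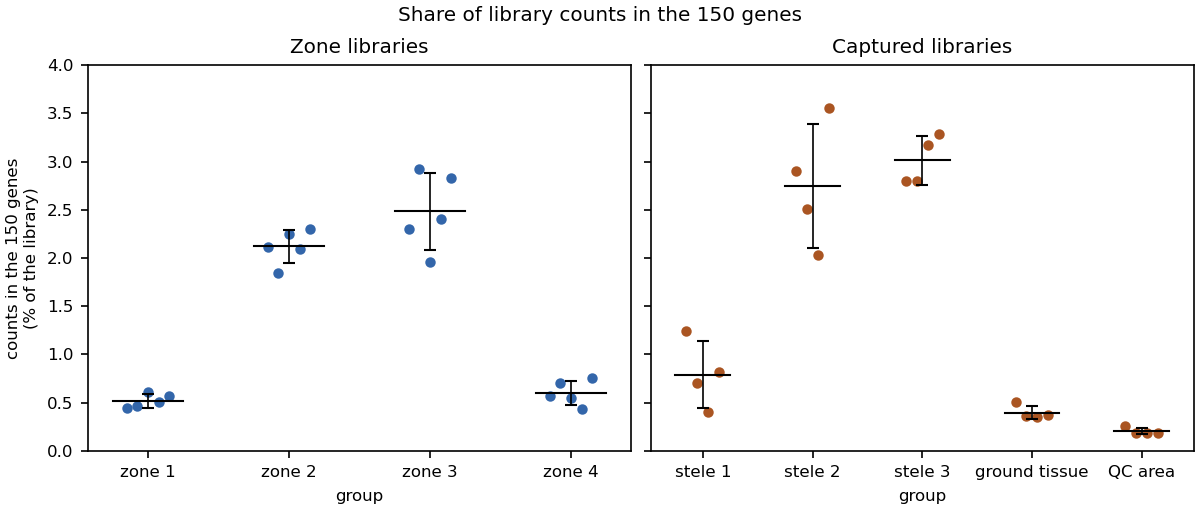
Share of each library's counts (% of the library, vertical axis) that fell on the 150 genes, by zone (left, n = 5 each) and captured region (right, n = 4 each). Points are libraries, and lines and bars give the mean ± SD. Zones 2 and 3 and steles 2 and 3 hold 1.85% or more in every library, and each other group stays at or below 1.24%.

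Across the 150 genes the median of the mean levels was 9.49 CPM in zone 1, 41.7 CPM in zone 2, 46.6 CPM in zone 3 and 9.22 CPM in zone 4. The ratio of the lower middle zone to the higher end zone was 2.22 at its lowest, 3.19 at the median and 24.0 at its highest. It reached 3-fold in 83 genes, 5-fold in 21 and 8-fold in 9. Most of the genes thus had a moderate bulge in the middle of the series, and a small group had a steep one. The genes also spanned a wide range of levels: averaged over zones 2 and 3, 132 had at least 10 CPM, 49 at least 100 CPM and 3 at least 1000 CPM.

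The gene ranked first, MA_24001g0010, had 9.93, 5.73, 21.3, 9.76 and 12.7 CPM in the 5 libraries of zone 1, 260.0, 236, 268, 234 and 308 CPM in zone 2, 238, 394, 143, 287 and 334 CPM in zone 3, and 27.0, 17.1, 9.24, 6.29 and 39.3 CPM in zone 4. Its lowest middle library stood at more than 3 times its highest end library. In the captured regions it had 147, 70.8, 3.17 and 129 CPM in stele 1, 627, 831, 938 and 2169 CPM in stele 2, 2191, 1463, 1911 and 694 CPM in stele 3, 55.9, 9.47, 8.95 and 20.8 CPM in ground tissue, and 0, 1.20, 0.0883 and 0 CPM in the QC area. Every library of steles 2 and 3 lay above every other captured library, and the QC area was close to 0.

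MA_62463g0010, ranked second, averaged 4.26 ± 1.28 CPM in zone 1, 73.0 ± 9.05 CPM in zone 2, 69.2 ± 24.1 CPM in zone 3 and 5.56 ± 2.07 CPM in zone 4 (SD, n = 5 each). Its captured libraries read 18.3, 7.63, 0.613 and 10.1 CPM in stele 1, 31.1, 49.3, 35.4 and 52.8 CPM in stele 2, 21.6, 26.1, 26.7 and 16.8 CPM in stele 3, 2.28, 0.296, 1.49 and 0.0893 CPM in ground tissue, and 0.105, 0.0926, 0 and 0 CPM in the QC area. Stele 2 did not overlap with any other region, and stele 1 overlapped with stele 3 through its replicate 1 and with ground tissue through its replicate 3. MA_7765271g0010, ranked the fourth, averaged 5.92 ± 2.36 CPM in zone 1, 80.8 ± 12.6 CPM in zone 2, 79.4 ± 29.1 CPM in zone 3 and 7.80 ± 2.97 CPM in zone 4 (SD, n = 5 each). It had 28.6, 12.8, 3.27 and 9.96 CPM in stele 1, 40.3, 65.1, 60.8 and 111 CPM in stele 2, 60.7, 64.4, 83.0 and 103 CPM in stele 3, 4.44, 1.48, 1.59 and 1.52 CPM in ground tissue, and 3.27, 3.24, 2.30 and 0.913 CPM in the QC area. Steles 2 and 3 overlapped with each other and lay above the rest, and ground tissue and the QC area shared the same low range.

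MA_10430095g0010, ranked the fifth, averaged 14.6 ± 1.79 CPM in zone 1, 137 ± 37.5 CPM in zone 2, 159.9 ± 49.1 CPM in zone 3 and 6.75 ± 2.80 CPM in zone 4 (SD, n = 5 each). In the captured regions it averaged 12.9 ± 4.67 CPM in stele 1, 49.9 ± 4.07 CPM in stele 2, 44.5 ± 15.4 CPM in stele 3, 12.2 ± 2.73 CPM in ground tissue and 11.6 ± 6.30 CPM in the QC area (SD, n = 4 each), a similar level outside steles 2 and 3. MA_10299189g0010, ranked the sixth, averaged 8.78 ± 2.73 CPM in zone 1, 66.7 ± 13.1 CPM in zone 2, 66.7 ± 17.0 CPM in zone 3 and 9.52 ± 5.01 CPM in zone 4 (SD, n = 5 each). It had 81.8, 43.1, 6.44 and 69.9 CPM in stele 1, 247, 134, 197 and 120.2 CPM in stele 2, 147, 146, 189 and 108 CPM in stele 3, 32.6, 17.2, 29.2 and 13.3 CPM in ground tissue, and 4.22, 1.48, 1.50 and 2.54 CPM in the QC area. Here the regions formed a graded order, with stele 1 between the other steles and ground tissue except for its replicate 3, which read 6.44 CPM.

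Of the other 3 genes among the first 8, MA_458736g0010 was high in the middle zones and low in every captured region. It averaged 12.4 ± 6.47 CPM in zone 1, 162 ± 21.7 CPM in zone 2, 175 ± 40.8 CPM in zone 3 and 15.8 ± 7.06 CPM in zone 4 (SD, n = 5 each). Its captured libraries had 0, 0, 0 and 0.365 CPM in stele 1, 5.85, 3.74, 3.71 and 1.26 CPM in stele 2, 2.63, 1.88, 0.908 and 0.714 CPM in stele 3, 9.87, 4.24, 11.9 and 0.536 CPM in ground tissue, and no count in the QC area. Its highest captured region was thus ground tissue, not a stele, although ground tissue replicate 4 lay below every stele 2 library. MA_32270g0020 averaged 0.192 ± 0.200 CPM in zone 1, 9.18 ± 2.90 CPM in zone 2, 15.3 ± 5.63 CPM in zone 3 and 0.636 ± 0.890 CPM in zone 4 (SD, n = 5 each), and was too low in the captured libraries to be tested. MA_10433908g0010 averaged 4.22 ± 2.13 CPM in zone 1, 31.7 ± 4.21 CPM in zone 2, 47.3 ± 13.1 CPM in zone 3 and 4.57 ± 0.637 CPM in zone 4 (SD, n = 5 each).

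**Figure D2:**
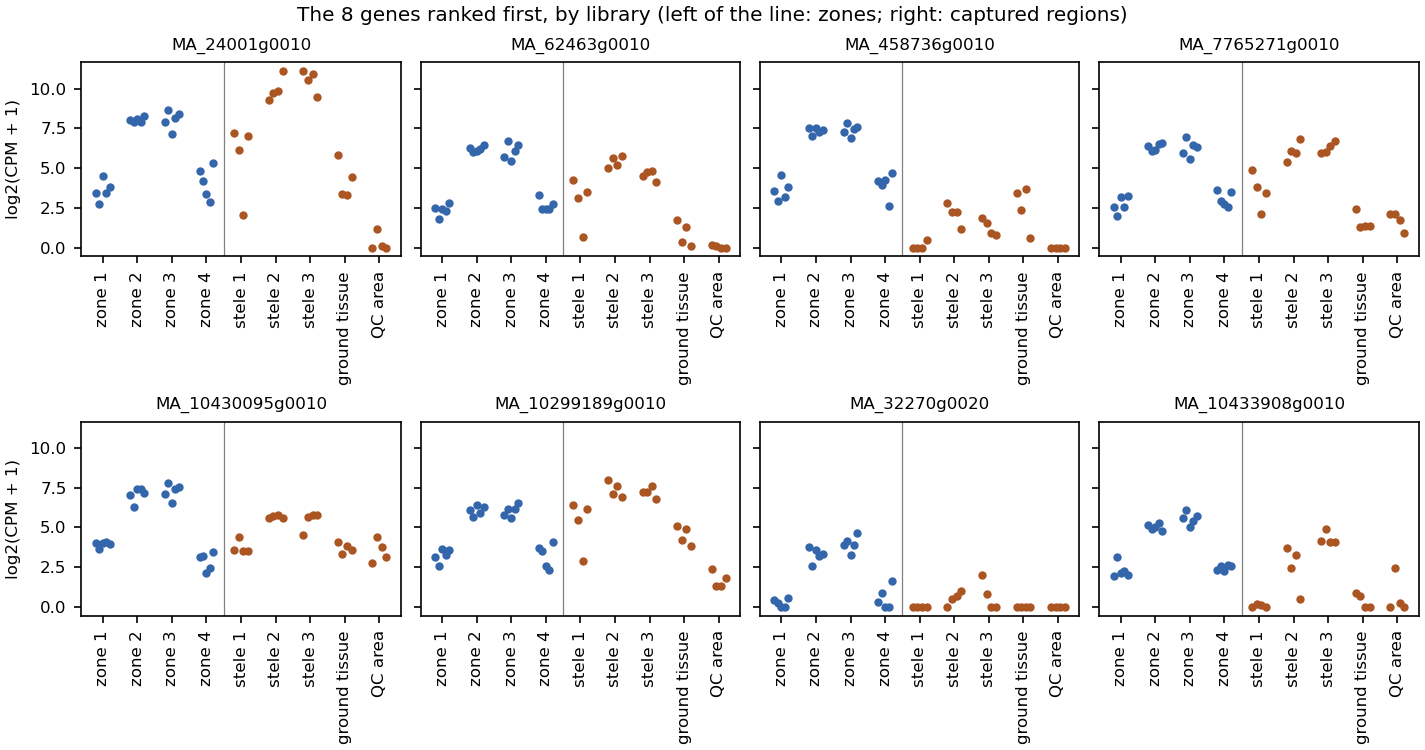
Level of the 8 genes ranked first in each library, as log2(CPM + 1) (vertical axis), with zones left of the grey line and captured regions right of it. Each point is a library (n = 5 per zone, n = 4 per captured region). Zones 2 and 3 stand above both end zones in each panel, and in the captured regions steles 2 and 3 are high for most of the genes, while MA_458736g0010 and MA_32270g0020 stay low in every region.

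The middle zones differed little from each other by construction, since the rule admits at most a 2-fold difference. The ratio of zone 3 to zone 2 ran from 0.501 to 1.98 with a median of 1.16, and 94 genes had the higher mean in zone 3 and 56 in zone 2. The ends were free to differ below the middle level, and did so more widely. The ratio of zone 4 to zone 1 ran from 0.0463 to 8.46 with a median of 1.08. The higher end was zone 4 for 81 genes and zone 1 for 69. Both ends were within 2-fold of each other for 90 genes, zone 4 was at over 2 times zone 1 for 37, and zone 1 was at over 2 times zone 4 for 23. The set therefore combines genes with even flanks and genes with 1 flank lower than the other, and both flanks lay below the middle in each gene.

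All 10 middle libraries lay above all 10 end libraries for 142 of the 150 genes. Among all 15469 genes with a mean of at least 5 CPM in zones 2 and 3, 4.34% had this separation, and since the choice used the same means nothing is read from the difference. The other 8 genes overlapped in a few libraries. For MA_136139g0020, for example, the lowest middle value was 3.13 CPM in zone 3 replicate 1, against the highest end value of 4.09 CPM in zone 1 replicate 4. Libraries of a zone also differed over the set as a whole. Zone 3 replicate 3 was the lowest of its zone for 118 of the 150 genes and replicate 2 the highest for 99. Zone 2 replicate 2 was the lowest of its zone for 93 genes, zone 4 replicate 4 for 86, and zone 4 replicate 5 was the highest of its zone for 83. The median coefficient of variation of a gene over the 5 libraries was 27.3% in zone 1, 16.7% in zone 2, 21.3% in zone 3 and 32.1% in zone 4.

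The border of the set is not a natural gap. The last genes inside it were MA_44257g0010, with 15.1, 63.5, 34.1 and 0.697 CPM in zones 1 to 4, and MA_41701g0010, with 7.97, 20.7, 24.2 and 8.92 CPM. The first outside it were MA_443312g0010, with 0.911, 6.66, 6.20 and 2.30 CPM, and MA_1574g0010, with 0.549, 10.7, 8.12 and 3.19 CPM. Their ranking scores, which are log2 ratios, were 1.13, 1.13, 1.13 and 1.12.

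Steles 2 and 3 were the regions of highest mean for most of the 150 genes in the captured libraries. By CPM over totals scaled with the trimmed mean of M-values (TMM), the scale of every captured level given here, 75 of the 150 genes had their highest mean in stele 3, 59 in stele 2, 15 in ground tissue and none in stele 1 or the QC area, and 1 gene had no count. Of all 27239 genes tested in the captured table, 30.6% were highest in stele 3, 14.9% in stele 2, 18.9% in ground tissue, 11.7% in stele 1 and 24.0% in the QC area. The order of steles 2 and 3 turned with the scaling: with plain total counts 53 genes were highest in stele 3, 79 in stele 2, 16 in ground tissue and 1 in stele 1. The median over the 150 genes of the mean level was 7.77 CPM in stele 1, 37.7 CPM in stele 2, 35.5 CPM in stele 3, 5.76 CPM in ground tissue and 1.55 CPM in the QC area.

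A total of 139 of the 150 genes had enough counts to be tested in the captured table. A gene high in a single region could pass this filter through that region alone, so counts over the 139 genes describe those genes and not the 150. By the quasi-likelihood F test of edgeR, adjusted over all 27239 genes by Benjamini and Hochberg's method, 133 of the 139 differed among the 5 regions at an adjusted p under 0.05, where 56.6% of all genes did. Every stele 3 library lay above every ground tissue library for 99 of the 150 (24.9% of all genes). Against every QC area library this held for 125 (25.9% of all genes). Every stele 2 library lay above every ground tissue library for 102 of the 150 (19.5% of all genes). It lay above every QC area library for 123 (21.5% of all genes). But stele 2 came from lane 7 alone and the QC area from lane 8 alone, so lane and region cannot be told apart there. The QC area was the region of lowest mean for 107 of the 139, against 23.9% of all genes. Ground tissue was lowest for 22 (16.6% of all genes), stele 1 for 7 (7.84%), stele 3 for 2 (39.0%) and stele 2 for 1 (12.7%).

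**Figure D3:**
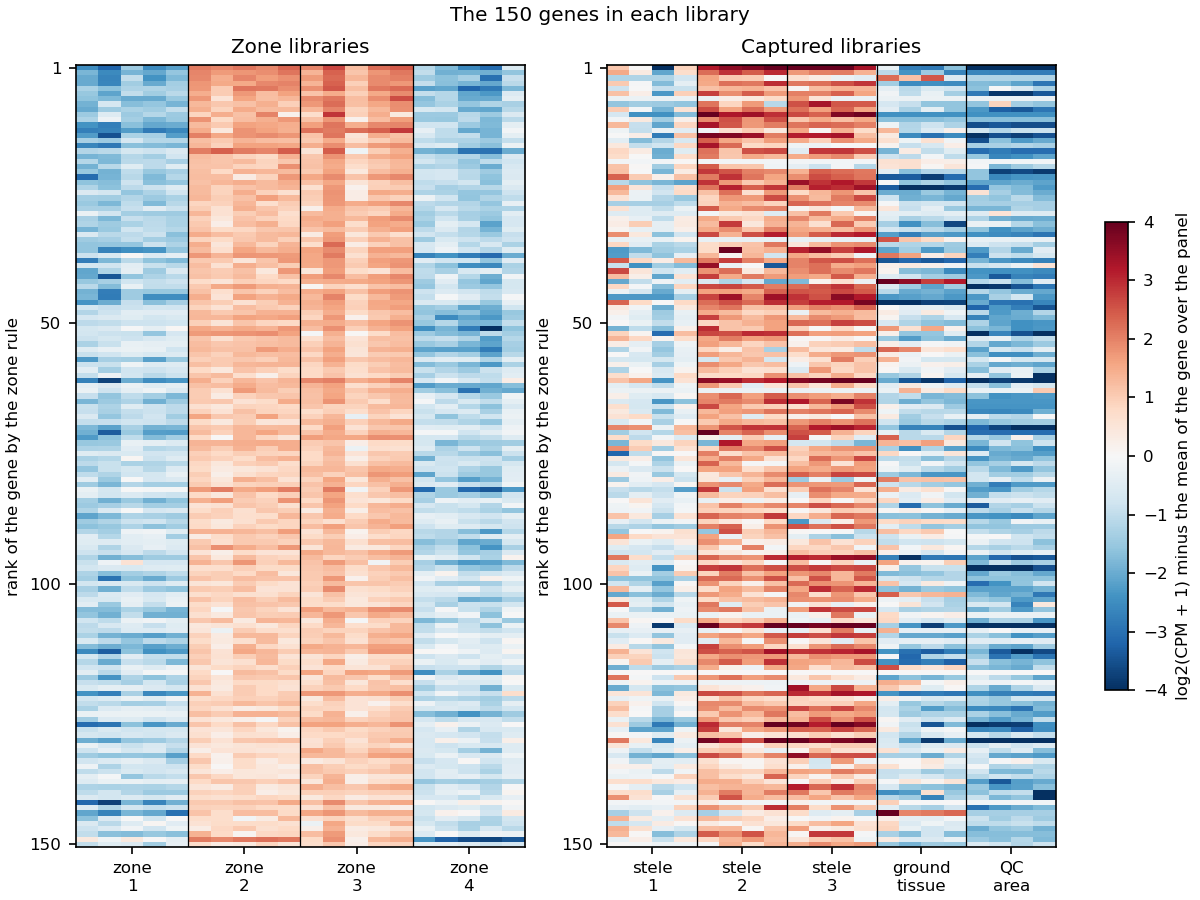
Level of the 150 genes in each library, in rank order from top to bottom, as log2(CPM + 1) minus the gene's mean over the 20 zone libraries (left) or the 20 captured libraries (right). Columns are libraries, grouped by zone or region. The band of higher values in zones 2 and 3 on the left comes from how the genes were chosen, and on the right most rows are highest in steles 2 and 3 and lowest in the QC area, with 15 rows highest in ground tissue.

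Ground tissue was first set against the QC area, the captured regions not labelled as stele. Of the 139 genes tested, 54 were higher in ground tissue (3.23% of all genes were) and 5 were lower (1.51% of all genes were) by edgeR's quasi-likelihood test. Ground tissue over the QC area had a median log2 fold change of 1.43 for the 139 genes and 0.01 for all genes. The largest rise was that of MA_10181288g0010, with 45.1, 8.78, 9.55 and 11.4 CPM in ground tissue and no count in any QC area library. This is at least 248-fold higher in ground tissue against a floor of 3 counts over the QC area (edgeR adjusted p = 0.00163), and at least 137.8-fold without ground tissue replicate 1. This gene averaged below 2 CPM in each stele, and its ground tissue mean was 13.6 times that of the next region. MA_24001g0010, given above, rose by a log2 fold change of 6.09 ± 1.12 with its SE (edgeR adjusted p = 0.00272). That value was 5.23 when ground tissue replicate 1 was left out. QC area replicate 2 held all but 1 of its QC area counts, and in the remaining libraries the ratio of ground tissue to the QC area was 706, with a 95% exact binomial interval of 126.4 to 27917 that covers counting error only.

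Genes that went the other way were fewer. MA_10429164g0010 had 5.53, 5.13, 8.85 and 9.11 CPM in ground tissue and 31.4, 15.8, 15.6 and 20.4 CPM in the QC area, without overlap, a log2 fold change of -1.54 ± 0.40 with its SE (edgeR adjusted p = 0.0312). Its call was lost when any of 4 libraries was left out, with an adjusted p of 0.125 without QC area replicate 1, 0.0583 without QC area replicate 4, 0.115 without ground tissue replicate 1 and 0.0979 without ground tissue replicate 2. MA_203992g0010 had 24.9, 14.5, 22.6 and 17.6 CPM in ground tissue and 50.3, 58.0, 30.1 and 36.3 CPM in the QC area, also without overlap (log2 fold change -1.13 ± 0.25 SE, edgeR adjusted p = 0.0107). Both genes were higher in every stele 2 library than in any ground tissue or QC area library. The lane 8 libraries alone, 3 of ground tissue and 4 of the QC area, gave 51 higher in ground tissue (3.83% of all genes). They gave 6 genes lower in ground tissue (2.92% of all genes). Ground tissue replicate 1 was the highest of its group for 102 of 147 genes with differing values, and without it 34 genes were called higher. The lower calls numbered 3 without ground tissue replicate 1 or 2, or QC area replicate 1 or 4.

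Stele 1 was also above the QC area. Of the 139 genes tested, 77 were higher in stele 1 (8.42% of all genes were) and none was lower (1.03% of all genes were) by edgeR's quasi-likelihood test. At an unadjusted p under 0.05 in that test 2 were lower, and DESeq2 also called 0 lower after adjustment. As a median, the log2 fold change of stele 1 over the QC area was 1.86 for the 139 genes and 0.05 for all genes. MA_7962537g0010 had 27.2, 5.04, 1.74 and 19.8 CPM in stele 1 and a single count in the QC area, in replicate 2. Its ratio of stele 1 to the QC area was 486, with a 95% exact binomial interval of 86.6 to 19230 that covers counting error only (edgeR adjusted p = 3.8e-05). Without QC area replicate 2, which leaves no count in the QC area, it was at least 119.7-fold higher in stele 1. MA_24001g0010 rose by a log2 fold change of 7.97 ± 1.17 with its SE (edgeR adjusted p = 0.000206). Without QC area replicate 2, where 1 QC area count is left, its ratio of stele 1 to the QC area was 2383, with an interval of the same kind of 427 to 94147.

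Stele 1 itself was uneven for these genes. Its replicate 3 was the lowest of the 4 for 95 of 143 genes with differing values and replicate 1 the highest for 78. The share of counts in the 150 genes ran from 0.400% to 1.24% over these libraries. The lane 8 libraries alone, 2 of stele 1 and 4 of the QC area, gave 38 higher in stele 1 (2.13% of all genes). They gave 0 genes lower in stele 1 (0.727% of all genes), with 1 lower at an unadjusted p under 0.05.

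Between stele 1 and ground tissue the genes split. Of the 139 tested, 32 were higher in stele 1 (4.78% of all genes were) and 11 were lower (1.25% of all genes were) by edgeR's quasi-likelihood test. For stele 1 over ground tissue the median log2 fold change was 0.74 for the 139 genes and 0.03 for all genes. MA_134938g0010 had 74.6, 32.9, 11.7 and 37.1 CPM in stele 1 and 1.41, 0.395, 0.497 and 0.714 CPM in ground tissue, a log2 fold change of 5.68 ± 0.59 with its SE (edgeR adjusted p = 1.05e-05). MA_10429164g0010, one of the few genes lower in ground tissue than in the QC area, had 659, 225, 128 and 225 CPM in stele 1, with a log2 fold change over ground tissue of 5.43 ± 0.47 SE (edgeR adjusted p = 2.47e-06) and of 4.71 without stele 1 replicate 1. Every stele 1 library stood above every ground tissue library for both genes.

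In the other direction, MA_41476g0010 had 0, 1.09, 2.56 and 2.07 CPM in stele 1 and 69.8, 47.1, 26.1 and 36.0 CPM in ground tissue, a log2 fold change of -4.88 ± 0.84 with its SE (edgeR adjusted p = 0.000971). It was at or below 5.45 CPM in each library of the other regions, so among captured regions it stood out in ground tissue. MA_10181288g0010 had 0, 0.409, 1.84 and 0.729 CPM in stele 1, against the ground tissue values given above (log2 fold change -4.53 ± 1.10 SE, edgeR adjusted p = 0.0188). Its adjusted p was 0.0896 without ground tissue replicate 1, and 0.0572, 0.0672 and 0.0578 without stele 1 replicates 1, 2 and 4. The log2 fold change was -3.64 without ground tissue replicate 1 and -5.46 without stele 1 replicate 3.

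The calls of this comparison changed with the libraries used. The lanes also divide the stele 1 replicates, so lane and replicate cannot be told apart. The lane 7 libraries alone, 2 of stele 1 and 1 of ground tissue, gave a median log2 fold change of 1.08 for the 139 genes. It was 0 for all genes. The lone ground tissue library of lane 7 has no spread of its own. Its spread had to be taken from the other groups of that lane, so nothing is read from calls in lane 7. The lane 8 libraries, 2 of stele 1 and 3 of ground tissue, gave 9 genes higher (1.06% of all genes) and 3 lower (0.488%). The median there was 0.22 for the 139 genes and 0 for all genes. MA_41476g0010 had an adjusted p of 0.0907 in lane 7, with that lone library, and 0.0131 in lane 8, and MA_10181288g0010 missed the threshold in both lanes, at 0.499 and 0.0892. Without stele 1 replicate 3, 51 genes were called higher. The lower calls numbered 5 without stele 1 replicate 1 or ground tissue replicate 1, and 7 without stele 1 replicate 2 or 3.

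Most of the genes were higher in stele 2 than in stele 1. Of the 139 genes tested, 95 were higher (12.4% of all genes were) and none was lower (8.97% of all genes were) by edgeR's quasi-likelihood test. At an unadjusted p under 0.05 in that test 0 were lower, and DESeq2 called 0 lower. The median log2 fold change of stele 2 over stele 1 was 1.83 for the 139 genes and -0.05 for all genes, and it was positive for 138 of the 139 (47.9% of all genes). MA_10429141g0010 had 13.6, 13.7, 9.96 and 17.0 CPM in stele 2 and 0, 0, 0 and 0.243 CPM in stele 1, where the 0.243 CPM are 2 counts. The ratio of stele 2 to stele 1 was 204, with a 95% exact binomial interval of 56.2 to 1689 (edgeR adjusted p = 1.97e-05), and it was at least 99.3-fold without stele 1 replicate 4, which held both counts.

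MA_57750g0010 had 30.9, 50.1, 18.0 and 50.9 CPM in stele 2 and 0, 0, 0 and 0.972 CPM in stele 1, a log2 fold change of 7.09 ± 0.99 with its SE (edgeR adjusted p = 0.000129). Without stele 1 replicate 4, which leaves no count in stele 1, it was at least 278-fold higher in stele 2, taking 3 counts over stele 1 as its floor. Of the 8 genes ranked first by zone, 7 could be tested and each of these 7 was higher in stele 2 than in stele 1. All stele 2 libraries shared lane 7. Set against the 2 stele 1 libraries of that lane alone, 46 genes were higher in stele 2 (2.24% of all genes were). In that fit 0 were lower (0.206% of all genes were), with 0 lower at an unadjusted p under 0.05. The median log2 fold change was 1.72, and 0 for all genes.

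Few genes were called between stele 3 and stele 2, in the set as among all genes. By fitted value, 13 of the 139 were at least 2-fold higher in stele 3 (12.3% of all genes were). At least 2-fold lower were 14 (20.8% of all genes were). Of the 139 tested, 5 were higher in stele 3 (3.85% of all genes were) and 6 were lower (9.16% of all genes were) by edgeR's quasi-likelihood test. The counts were 4 and 8 with total-count scaling and 8 and 5 with DESeq2 size factors, and 24 genes of either direction had an unadjusted p under 0.05. The median log2 fold change of stele 3 over stele 2 was 0.03 for the 139 genes and -0.11 for all genes. The first of these turned to -0.19 with total counts, where all genes had -0.34, to -0.014 without stele 2 replicate 3 and to -0.045 without stele 3 replicate 3. MA_9257733g0010 had 40.7, 10.9, 24.0 and 9.64 CPM in stele 3 and 4.93, 3.99, 3.52 and 2.65 CPM in stele 2 (log2 fold change 2.49 ± 0.71 SE, edgeR adjusted p = 0.0273). MA_134293g0010 had 1008, 563, 876 and 449 CPM in stele 3 and 263, 297, 302 and 282 CPM in stele 2 (log2 fold change 1.34 ± 0.30 SE, edgeR adjusted p = 0.00657). Neither gene overlapped between these groups.

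Lower in stele 3 were MA_103368g0010, with 1.21, 1.13, 0.727 and 0 CPM in stele 3 and 0, 31.9, 9.48 and 10.1 CPM in stele 2 (log2 fold change -4.06 ± 1.22 SE, edgeR adjusted p = 0.0344), and MA_48090g0010, with 1.21, 1.13, 1.45 and 1.43 CPM in stele 3 and 23.3, 10.8, 3.22 and 3.53 CPM in stele 2 (-2.95 ± 0.81 SE, edgeR adjusted p = 0.0223). The groups overlapped for the first, in stele 2 replicate 1, and not for the second. These calls were close to the threshold. MA_9257733g0010 lost its call without stele 2 replicate 2 or 3 or stele 3 replicate 1 or 3, with adjusted p-values of 0.0553, 0.0653, 0.101 and 0.0607. MA_103368g0010 lost its call without stele 2 replicate 2 (0.111) and without stele 3 replicates 1 to 4 (0.0596, 0.0541, 0.0758 and 0.0794). MA_48090g0010 lost its call without stele 2 replicate 1 (0.0884) or stele 3 replicate 1 (0.0504). The log2 fold change was -3.09 for MA_103368g0010 without stele 2 replicate 2 and -2.15 for MA_48090g0010 without stele 2 replicate 1.

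The number of genes called higher in stele 3 than in stele 2 was 3 without stele 2 replicate 2 or 3 or stele 3 replicate 1 or 3, and 8 without stele 2 replicate 4. The number called lower was 3 without stele 3 replicate 1 or 4. The lane 7 libraries alone, 3 of stele 3 and 4 of stele 2, gave 1 gene higher (0.396% of all genes) and 1 lower (0.532%). None of the 4 genes named for this comparison passed there (edgeR adjusted p = 0.180, 0.0579, 0.234 and 0.144 in the order given).

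Most of the genes were also higher in stele 3 than in stele 1, where the stele 1 libraries are those already set against stele 2. Of the 139 genes tested, 100 were higher in stele 3 (20.9% of all genes were) and 2 were lower (25.2% of all genes were) by edgeR's quasi-likelihood test. The median log2 fold change of stele 3 over stele 1 was 2.00 for the 139 genes, while it was -0.21 for all genes. With total-count scaling the medians were 1.61 and -0.60. MA_10433908g0010 had 16.6, 28.2, 15.8 and 15.5 CPM in stele 3 and 0, 0.136, 0.102 and 0 CPM in stele 1, which are 2 counts. The ratio of stele 3 to stele 1 was 290, with a 95% exact binomial interval of 79.6 to 2399 (edgeR adjusted p = 0.000532), and it was 439.7 (interval 78.5 to 17411, resting on 1 count) without stele 1 replicate 2. MA_57750g0010 had 35.6, 27.6, 58.8 and 44.4 CPM in stele 3, a log2 fold change over stele 1 of 7.25 ± 0.99 SE (edgeR adjusted p = 1.16e-05). It was at least 311-fold higher in stele 3 without stele 1 replicate 4.

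The 2 genes that were lower in stele 3 were MA_203992g0010 and MA_89005g0010. MA_203992g0010 had 73.9, 75.1, 90.6 and 72.3 CPM in stele 3 and 185, 129.9, 77.8 and 117 CPM in stele 1 (log2 fold change -0.71 ± 0.25 SE, edgeR adjusted p = 0.0258), with an overlap through stele 1 replicate 3. Its adjusted p was 0.119 without stele 1 replicate 1, and 0.0699, 0.0519 and 0.0584 without stele 3 replicates 1, 2 and 4. MA_89005g0010 had a log2 fold change of -2.74 and was low in both groups. It had 1.82, 0.563, 0.182 and 1.07 CPM in stele 3 and 10.1, 5.45, 4.50 and 4.50 CPM in stele 1. The lane 7 libraries alone, 3 of stele 3 and 2 of stele 1, gave 70 genes higher (8.80% of all genes) and 2 lower (6.32%). In lane 8 the median log2 fold change was 2.04 for the 139 genes and -0.38 for all genes. There the spread of the lone stele 3 library had to be taken from the other groups. MA_203992g0010 had an adjusted p of 0.0333 in lane 7 and 0.444 in lane 8. The number of lower calls was 1 without stele 1 replicate 1 or stele 3 replicate 1, 2 or 4, and 4 without stele 1 replicate 3.

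**Figure D4:**
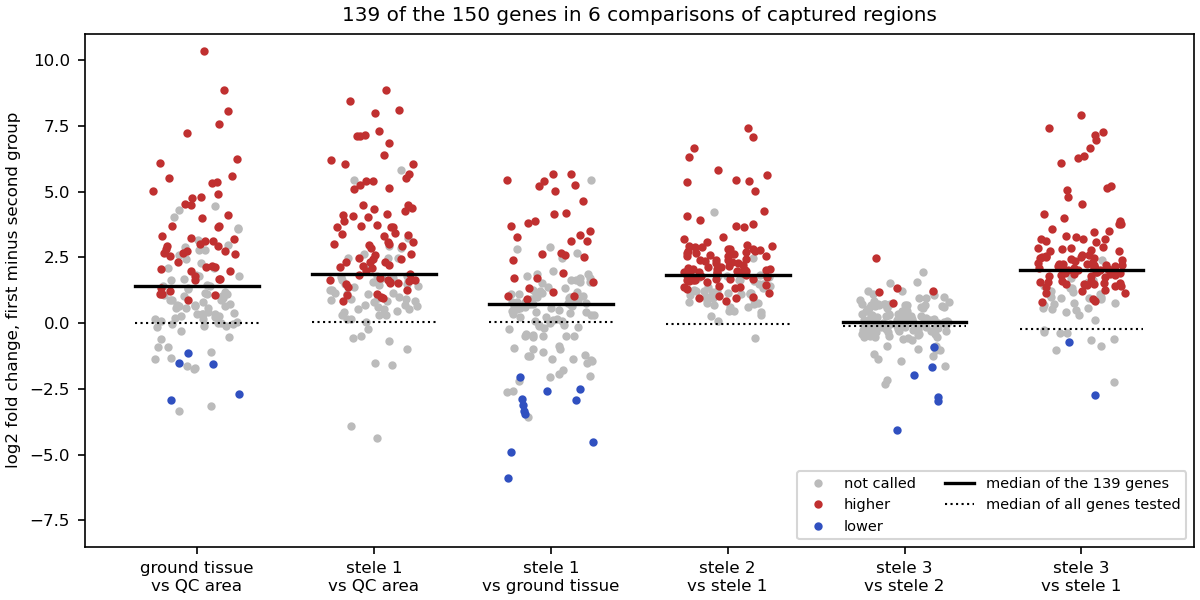
Log2 fold change (first over second group, vertical axis) of the 139 genes tested in each of 6 comparisons of captured regions. Points are genes, red where higher and blue where lower at an edgeR adjusted p under 0.05 and grey otherwise, the solid line is their median and the dotted line the median of all 27239 genes tested; fitted values of genes with no count in a group depend on the prior count. The solid line lies furthest above the dotted line for stele 3 and stele 2 over stele 1 and nearest to it for stele 3 over stele 2.

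The genes were next split by their higher end zone, as a description. Of the 139 tested, 73 had the higher end in zone 4 and 66 in zone 1. The median log2 fold change of stele 1 over ground tissue was 1.12 for the genes with the higher end in zone 4 and 0.10 for those with it in zone 1. For stele 1 over the QC area these medians were 2.46 and 1.56, and for ground tissue over the QC area 1.20 and 1.72. For stele 2 over stele 1 they were 1.98 and 1.69, for stele 3 over stele 1 2.13 and 1.77, and for stele 3 over stele 2 0.15 and -0.01. By highest region, the 81 genes with the higher end in zone 4 had 48 in stele 3, 26 in stele 2 and 7 in ground tissue. The 69 genes with the higher end in zone 1 had 27 in stele 3, 33 in stele 2 and 8 in ground tissue. The gap between both groups of genes was widest for stele 1 over ground tissue, and no test was made of it.

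The 2 genes with the highest CPM in the middle zones also had high CPM in the steles. MA_10427724g0030 averaged 239 ± 99.1 CPM in zone 1, 2393 ± 319 CPM in zone 2, 3470.3 ± 426 CPM in zone 3 and 1051 ± 207 CPM in zone 4 (SD, n = 5 each). It had 369, 87.5, 33.1 and 62.7 CPM in stele 1, 1887, 1005, 953 and 4483 CPM in stele 2, 3501, 2103, 4015 and 3064 CPM in stele 3, 216, 128, 21.6 and 70.5 CPM in ground tissue, and 12.4, 16.1, 16.9 and 43.3 CPM in the QC area. MA_6810759g0010 averaged 659 ± 111 CPM in zone 1, 1601 ± 209 CPM in zone 2, 2132 ± 482 CPM in zone 3 and 644 ± 236 CPM in zone 4 (SD, n = 5 each). It had 611, 141, 10.4 and 109 CPM in stele 1, 3127, 1019, 1141 and 6633 CPM in stele 2, 3515, 2261, 3660.1 and 4584 CPM in stele 3, 64.0, 30.7, 10.8 and 32.0 CPM in ground tissue, and 2.11, 4.26, 3.00 and 7.51 CPM in the QC area. For both genes every stele 2 and stele 3 library lay above every other captured library, and the 4 stele 2 libraries spread by more than 4-fold. The 10 genes of highest CPM held 48.4% of the summed CPM of the 150 in zone 2 and 49.9% in zone 3, a share that also depends on gene length.

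Levels in whole middle segments and in captured regions did not always match. The mean of the highest captured region exceeded the mean over zones 2 and 3 for 70 of the 150 genes and was below 0.1 times that level for 11. MA_116933g0010, picked out after its values were seen, had 60.8 CPM over zones 2 and 3 and 3099 ± 594 CPM in stele 3 (SD, n = 4). In the opposite corner, MA_63112g0010 had 126.8 CPM over zones 2 and 3 and no count in any of the 20 captured libraries, where 3 counts over all of them would be 0.0177 CPM. It was 1 of 6 genes below 1 CPM in every captured region, whose means over zones 2 and 3 ran from 7.61 to 126.8 CPM.

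**Figure D5:**
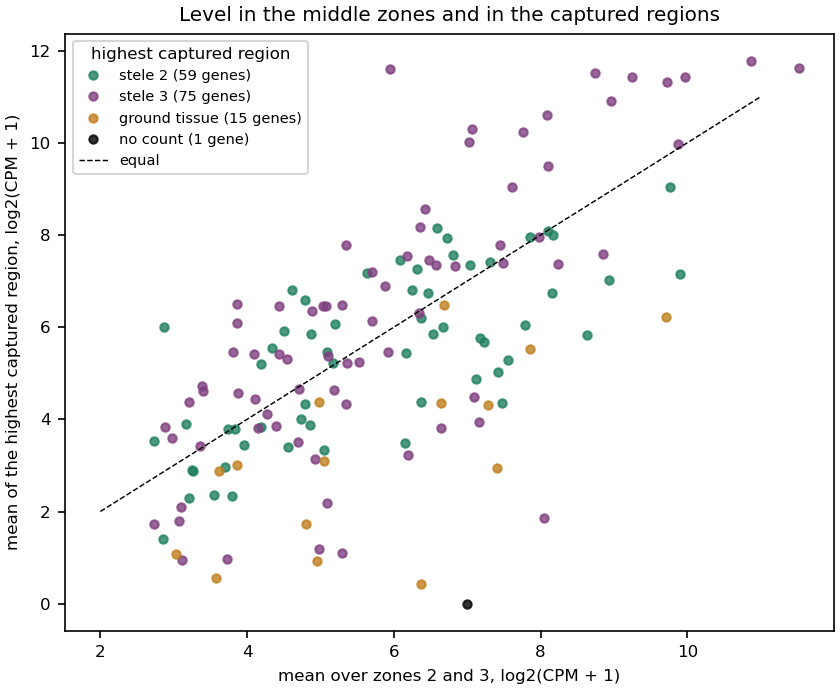
Mean over zones 2 and 3 (horizontal axis) and mean of the highest captured region (vertical axis) of the 150 genes, both as log2(CPM + 1), coloured by that region. Points are genes and the dashed line marks equal levels; zone CPM use total counts and captured CPM use TMM-scaled totals. The 70 points above the line are genes highest in stele 2 or stele 3, and the 15 genes highest in ground tissue and the gene with no captured count lie below it.

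Among the 15 genes highest in ground tissue, 8 were at least 2-fold above the next region and 10 had at least 5 CPM there, while 3 met both limits. The other 5 of the 8 had too few counts to be tested, with means of 0.343 to 2.30 CPM in ground tissue, so their ratios rest on few counts. These 8 include MA_41476g0010 and MA_10181288g0010, described above, and the pair on a shared scaffold, MA_89682g0010 and MA_89682g0020. A scaffold is a stretch of assembled sequence, and IDs that share the part before the letter g were taken to lie on the same one. The 150 genes lay on 146 scaffolds, of which 4 held 2 of them each. Of the 30 other listed IDs on these scaffolds, 8 had at least 5 CPM in zone 2 or 3. For 6 of the 8, or 75%, zone 2 or 3 was the highest zone, while that held for 33.4% of all 19010 genes at this level. Among the 6, MA_10427724g0020 and MA_10427724g0040 share a scaffold, and MA_10431814g0010 had 15.6 CPM in zone 2 and 15.3 CPM in zone 1. They were named after their values were seen, and nothing is read from so few genes.

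The 4 pairs are set side by side. On scaffold MA_89682, MA_89682g0010 averaged 4.15 ± 0.776, 24.1 ± 3.39, 29.9 ± 6.88 and 5.63 ± 1.32 CPM in zones 1 to 4, and MA_89682g0020 averaged 1.25 ± 0.429, 10.6 ± 1.08, 11.4 ± 2.24 and 1.68 ± 0.548 CPM (SD, n = 5 each). In the captured libraries the first had 6.07, 1.68, 1.09 and 0.357 CPM and the second 0.650, 0.691, 0.298 and 0.268 CPM in ground tissue, and neither had a count in stele 2, stele 3 or the QC area. On scaffold MA_10434848, the genes MA_10434848g0010 and MA_10434848g0020 averaged 19.3 ± 5.87 and 648 ± 171 CPM in stele 1, 95.2 ± 24.3 and 2715 ± 545 CPM in stele 2, 74.5 ± 11.6 and 2760.1 ± 631 CPM in stele 3, 7.58 ± 2.43 and 319 ± 70.7 CPM in ground tissue, and 4.14 ± 1.40 and 149.5 ± 34.8 CPM in the QC area (SD, n = 4 each). Both followed the same order of regions apart from steles 2 and 3, which overlapped. Reads shared by near-identical copies could be lost or split, which the files do not show.

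On scaffold MA_151, MA_151g0010 had 5.46, 1.31, 4.72 and 2.68 CPM in stele 3 and 4.55, 0, 0.497 and 1.52 CPM in ground tissue. MA_151g0020 had 35.6, 4.32, 9.08 and 3.03 CPM in stele 3 and 26.9, 1.58, 1.59 and 8.93 CPM in ground tissue, where replicate 1 of each region carried most of the signal. On scaffold MA_136139, MA_136139g0010 averaged 31.5 ± 12.9 CPM in stele 2 and 28.4 ± 2.76 CPM in stele 3. MA_136139g0020 averaged 1.65 ± 0.371 CPM in stele 2 and 3.31 ± 1.41 CPM in stele 3 (SD, n = 4 each). Both genes followed the same order of regional means apart from steles 2 and 3, with ground tissue next, then stele 1 and then the QC area. Next to the gene of highest CPM, MA_10427724g0030, the neighbour MA_10427724g0020 averaged 8.05, 90.2, 124.5 and 45.2 CPM in zones 1 to 4 and 0.772 CPM in stele 1, 16.0 CPM in stele 2, 23.2 CPM in stele 3, 0.497 CPM in ground tissue and 0.0485 CPM in the QC area. It met the conditions of the zone rule but ranked below 150, and it was named after its values were seen.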

How the data were processed

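RNA of 20 zone libraries and 20 captured libraries was sequenced. The authors deposited 1 table of unnormalized read counts for 70736 gene IDs per kind of library. The submitters' processing notes name Trimmomatic, STAR and HTSeq. Versions, genome build, gene models and strand handling were not given in the sources used here, so genes that overlap or lie antisense to each other may share reads. The stele columns are headed with the letter Z, a number and a replicate letter and were assigned by elimination. The 150 genes and the comparisons were chosen with earlier results of these data known.

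Zone CPM use plain library totals, as the choice of genes does. The captured table was analysed with edgeR 4.0.16 in R 4.3.3: filterByExpr (27239 genes, at least 99.6% of each library's counts), TMM (factors of 0.753 to 1.23), then glmQLFit on the 5 groups together and glmQLFTest per comparison, with Benjamini-Hochberg adjustment over all 27239 genes and a threshold of 0.05. The biological coefficient of variation was 48.2%. Zone contrasts were not tested. The SE is the log2 fold change over the square root of F. Where a group had no count, a fold is a bound against 3 counts over the group, and with 1 to 3 counts a ratio with a 95% exact binomial interval is given. Both cover counting error only, since no molecular identifiers mark independent molecules. Replicates differed by more than sampling noise (smallest chi-square per gene 1.90), so none were merged.

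The genes named are the 8 ranked first, the last 2 inside and first 2 outside the set, per comparison up to 2 genes of greatest rise and 2 of greatest fall among called genes with at least 5 CPM over both groups, the 2 of highest middle CPM, and pairs on a scaffold. A few others are marked as named after their values were seen, and MA_89005g0010 and the overlapping MA_136139g0020 complete small counts. Pathway and marker lists by product name could not be applied, since the files do not pair IDs with names. Alternatives covered scaling by total counts and by DESeq2 1.42.0 size factors, DESeq2 itself, filters, lanes, a replicate block, fits of 2 groups, and each replicate left out. The procedure was tested on simulated data.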

Additional observations from a re-analysis of the deposited data

Results flagged for a closer look

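In 19 of 155 groups of values a library stood far from the others of its group. Chance flags about 1 in 20 groups where values are normally distributed, which CPM values need not be. The 19 are therefore not read as more than chance would give. The rate cannot hold for 4 of the 19. In these the other libraries were all at 0 and any single value above 0 is picked out. Of the share of counts in the 150 genes, ground tissue replicate 1 held 0.502%, with the others at 0.350% to 0.371%, and QC area replicate 1 held 0.254%, with the others at 0.185% to 0.188%.

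QC area replicate 2 stood above the rest of its group for MA_24001g0010 (1.20 CPM, others 0 to 0.0883 CPM), MA_10433908g0010 (4.54 CPM, others 0 to 0.177 CPM) and MA_7962537g0010 (0.0926 CPM, others 0). QC area replicate 4 had 43.3 CPM of MA_10427724g0030, with the others at 12.4 to 16.9 CPM. Stele 1 replicate 4 alone held counts of MA_458736g0010 (0.365 CPM), MA_10429141g0010 (0.243 CPM) and MA_57750g0010 (0.972 CPM) in its group. Stele 1 replicate 1 had 369 CPM of MA_10427724g0030, with the others at 33.1 to 87.5 CPM, and stele 1 replicate 2 had 19.9 CPM of MA_10430095g0010, with the others at 10.2 to 11.1 CPM. Ground tissue replicate 1 stood above its group for MA_7765271g0010 (4.44 CPM, others 1.48 to 1.59 CPM) and MA_10181288g0010 (45.1 CPM, others 8.78 to 11.4 CPM). Stele 3 replicate 2 had 28.2 CPM of MA_10433908g0010, with the others at 15.5 to 16.6 CPM, and stele 3 replicate 3 had 90.6 CPM of MA_203992g0010, with the others at 72.3 to 75.1 CPM.

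In the zones, zone 1 replicate 2 had 11.5 CPM of MA_10430095g0010 (others 14.8 to 15.9 CPM) and 7.95 CPM of MA_10433908g0010 (others 2.88 to 3.86 CPM). Zone 1 replicate 3 had 5.51 CPM of MA_89682g0010 (others 3.64 to 4.07 CPM), and zone 2 replicate 2 had 728 CPM of MA_10434848g0020 (others 898 to 963 CPM). The part of single libraries in the comparisons is given by the values without them, beside the results and in the ranges of the next section.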

How the results depend on the processing

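With each replicate left out in turn, the genes called higher and lower ran from 34 to 54 and 3 to 5 for ground tissue over the QC area, 69 to 85 and 0 to 0 for stele 1 over the QC area, 25 to 51 and 5 to 10 for stele 1 over ground tissue, 79 to 102 and 0 to 0 for stele 2 over stele 1, 3 to 8 and 3 to 6 for stele 3 over stele 2, and 91 to 103 and 1 to 4 for stele 3 over stele 1. Genes that differed among regions numbered 132 to 134. Within a lane, stele 1 over the QC area had 38 higher (lane 8), stele 1 over ground tissue 19 higher and 0 lower (lane 7) and 9 higher and 3 lower (lane 8), stele 2 over stele 1 had 46 higher (lane 7), stele 3 over stele 2 had 1 higher and 1 lower (lane 7), and stele 3 over stele 1 had 64 higher and 1 lower (lane 8). These fits hold fewer libraries, with a single one of ground tissue in lane 7 and of stele 3 in lane 8. DESeq2 called 8 lower for ground tissue over the QC area and 10 higher for stele 3 over stele 2, and its size factors within edgeR gave 8 higher for the second of these. Fitting steles 3 and 2 alone gave 3 higher and 3 lower. Total counts gave 4 lower for stele 3 over stele 1, and a size of at least 2-fold left 1. The median log2 fold change of stele 3 over stele 2 changed sign to -0.19 with total counts, -0.014 without stele 2 replicate 3 and -0.045 without stele 3 replicate 3, within a range of -0.045 to 0.14 over the libraries left out. The cause of these changes was not tested.

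Replicate numbers are shared between groups in the labels, and same-numbered libraries deviated together weakly at most. For no comparison were all 4 correlations over 0.1, and they ran from -0.162 to 0.220. The numbers were not taken as a pairing, and whether they mark one is not stated. With the number as a replicate block 7 genes instead of 11 were lower in stele 1 than in ground tissue, and stele 3 over stele 2 had 7 higher and 5 lower. Stele 1 over the QC area, stele 2 over stele 1 and stele 3 over stele 1 had 78, 97 and 99 higher, and ground tissue over the QC area 53. For stele 3 over stele 2, 3 of the 4 libraries correlated best with their own number. For stele 1 over the QC area, stele 1 over ground tissue and stele 2 over stele 1, 2 of the 4 did. For ground tissue over the QC area and stele 3 over stele 1, 0 did.

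Of 329 settings run for the named genes, 296 stayed on the same side of the threshold, 33 lost the call and 0 changed sign. Scaling the zone libraries with TMM let 611 genes instead of 551 meet the zone conditions, and 139 of the 150 were again ranked within the first 150. With a zone replicate left out 510 to 593 genes met them, and 135 to 147 of the 150 were ranked there again. A count of 0 in a captured group allows a level of up to 3 counts over it, which is 0.0723 CPM for the QC area and 0.140 CPM for stele 3, the lowest and highest of the 5. In the QC area 63 of the 150 genes lay under 1 CPM.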
